A study of Mus musculus with 18 samples.

Results

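The 29 genes described here encode the enzymes of cholesterol synthesis, the proteins that sense sterol and control those enzymes, and proteins that move sterol or supply its precursor. They were taken by gene symbol from 35976 symbols counted in 4T1, a line of BALB/c mammary carcinoma cells that stands as a mouse model for triple-negative disease. All 29 were listed and all 29 passed the filter on low counts, among 15072 genes tested. By role they fall into 7 genes of the mevalonate pathway, 11 enzymes that carry squalene and sterols to cholesterol, 5 regulators and 6 genes of transport and supply.

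Cells of both arms received 2 µg/ml doxycycline for 6 days. One arm carried a non-silencing hairpin (NSi) and the other a hairpin against Dap5 (shDap5), whose target gene is Eif4g2 and whose protein DAP5 is a translation initiation factor. RNA came from unfractionated lysate (input), from pooled light polysomes or from pooled heavy polysomes, with 3 polyA-selected libraries per group, 6 groups and thus 18 libraries. Libraries carry the numbers 1 to 3 within a group. Each arm is 1 line and uninduced cells are not among the samples, so lines that differed before induction and lines that responded to it cannot be told apart. The labels do not say whether the 3 libraries of a group are separate cultures, and the p-values measure only how these libraries spread, possibly for technical reasons. In such bulk libraries, fewer cells carrying an mRNA and less of it per cell cannot be told apart.

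Cholesterol is built from acetyl-CoA through mevalonate and isoprenoid diphosphates to squalene, which is closed into lanosterol and then trimmed to cholesterol. The mRNAs of these enzymes are driven together by SREBP transcription factors, above all SREBP2, the product of Srebf2. SCAP escorts SREBP from the endoplasmic reticulum to the Golgi for cleavage when membrane sterol is low, and INSIG proteins hold the complex back when it is high. Sterol in excess is exported by ABCA1 under control of the LXR receptors, which also drive Mylip, whose product IDOL marks the LDL receptor for degradation.

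The promoters of 4 members are shown because synthesis genes are known to be driven together. The 4 were chosen after their values were seen. From the mevalonate pathway came 3 that lay high together in shDap5 inputs 1 and 3. The last is Abca1, which is not driven with them and lay low in the same libraries. Each promoter is given as the 250 bases before the transcription start in RefSeq on GRCm38.p6. That build is the C57BL/6J reference and not the BALB/c sequence of these cells. Capitals mark matches on either strand to the sterol regulatory element TCACNCCAC or to the box CCAAT bound by NF-Y, a partner of SREBP (ATTGG is CCAAT read on the other strand). The Hmgcs1 window is chr13:119690101-119690350 on the plus strand, that of Idi1 chr13:8885356-8885605 on the plus strand, that of Mvk chr5:114444019-114444268 on the plus strand, and that of Abca1 chr4:53159896-53160145 on the minus strand.
Hmgcs1: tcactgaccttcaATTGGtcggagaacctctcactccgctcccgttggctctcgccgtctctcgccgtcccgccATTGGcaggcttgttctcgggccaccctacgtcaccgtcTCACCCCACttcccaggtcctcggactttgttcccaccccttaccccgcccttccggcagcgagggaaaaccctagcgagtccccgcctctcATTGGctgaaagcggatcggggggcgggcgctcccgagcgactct
Idi1: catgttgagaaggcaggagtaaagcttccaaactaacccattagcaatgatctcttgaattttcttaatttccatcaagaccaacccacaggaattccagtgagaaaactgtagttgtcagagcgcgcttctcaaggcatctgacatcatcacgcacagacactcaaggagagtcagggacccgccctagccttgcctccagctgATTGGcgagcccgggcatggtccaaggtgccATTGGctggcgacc
Mvk: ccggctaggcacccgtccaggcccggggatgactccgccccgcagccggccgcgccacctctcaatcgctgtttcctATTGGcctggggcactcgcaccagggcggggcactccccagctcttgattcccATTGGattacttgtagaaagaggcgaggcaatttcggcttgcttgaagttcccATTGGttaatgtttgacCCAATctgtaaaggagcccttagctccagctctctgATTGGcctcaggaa
Abca1: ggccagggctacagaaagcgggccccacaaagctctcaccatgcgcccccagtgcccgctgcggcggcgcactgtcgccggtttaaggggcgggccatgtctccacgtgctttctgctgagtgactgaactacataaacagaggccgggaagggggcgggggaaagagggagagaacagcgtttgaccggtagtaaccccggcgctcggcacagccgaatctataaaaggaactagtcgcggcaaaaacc
Hmgcs1 shows 1 sterol regulatory element and 3 CCAAT boxes, Idi1 shows 2 CCAAT boxes, Mvk shows 5, and Abca1 shows no match to either motif.

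A promoter window, from 250 bases before to 50 bases after the start, was held by the RefSeq table for 24 of the 29 genes; Fdps, Fdft1, Sqle, Stard4 and Npc1 had none in it. At least 1 CCAAT box lay in the windows of 21 of the 24 genes (87.5%), against 42.6% of the 11137 other tested genes with a window. Acat2, Scap and Abca1 had none, though Acat2 and Scap lay above all NSi inputs in shDap5 inputs 1 and 3. Insig2, with a log2 change of 0.06 in input (SE 0.16), had 3 over its windows. Whether the motifs go with the direction of change was not tested. The GC box GGGCGG, bound by Sp1, lay in 23 of 24 (95.8%), against 64.8% of the other tested genes. The sterol regulatory element lay in the window of Hmgcs1 alone, 1 of 24 (4.17%), against 1.35%. The motifs were searched on both strands, and none of the 3 holds another within its letters. A match is a run of letters and not a measured binding site.

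The hairpin's target and the cell type markers were checked first. Eif4g2 stood at 799, 759.5 and 852 CPM in NSi inputs (libraries 1, 2 and 3) and at 592, 340.4 and 671 CPM in shDap5 inputs, lowest in shDap5 input 2. CPM here are counts scaled to library size with edgeR's TMM factors, so a value is a share of the RNA of its own library. Eif4g2 was lower by a log2 change of -1.60 on light polysomes (SE 0.26, edgeR adjusted p = 0.00204) and of -1.45 on heavy polysomes (SE 0.26, adjusted p = 0.00349), and in input by -0.59 (adjusted p = 0.202), which did not pass the test. Epithelial markers (6 genes, none at 0) summed to 2510 to 2810 CPM in NSi and 3610 to 4250 CPM in shDap5 inputs. Of other cell types, macrophage markers (5 genes, none at 0) summed to 55.1 to 62.8 and 35.3 to 73.6 CPM. Fibroblast markers (6 genes, Lum at 0 in both arms) summed to 30.8 to 40.5 and 23.4 to 30.6 CPM, nearly all of it Pdgfra. Endothelial markers stayed at or under 3.26 CPM, and those of steroid-making cells at or under 3.01 CPM. Adipocyte and hepatocyte markers, with Lep and Ttr at 0, stayed under 0.1 CPM. Total counts were 30385863 to 71331978 per library.

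Per kilobase of transcript, the level in NSi inputs spanned from Msmo1 at 88.8 ± 7.31 CPM per kb (SD, n = 3) to Abca1 at 0.091 ± 0.00966. Msmo1, the methyl sterol oxidase, was followed by Sqle at 49.0 ± 6.86, Srebf2 at 41.5 ± 2.70, Fdps at 37.5 ± 2.76 and Dhcr7 at 36.9 ± 2.35. After Msmo1, neighbours among these lay within 2 SD of each other. Idi1 was low for a synthesis enzyme, at 0.806 ± 0.0829 CPM per kb. Some counts are uncertain because the transcript shares sequence with other genes in the GENCODE M21 annotation. Of 50-base windows along the transcript, 86.4% were shared with other genes for Fdps (mostly Gm43738), 45.9% for Acat2 (Acat3), 30.7% for Fdft1 (Ctsb and others), 30.5% for Idi1 (Gm13502 and others) and 20.8% for Tmem97 (Gm5809). How shared reads were counted is not given in the sources used here.

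The input comparison asked how sterol mRNAs differed in whole lysate between the arms. Most synthesis genes were about 2-fold the NSi level in shDap5 inputs 1 and 3 and near the NSi level in shDap5 input 2. With this spread, Stard4 and Idi1 rose (2 of 29 genes, against 3.01% of all genes tested that rose and 6.95% called in either direction) and no member fell (3.94%). All shDap5 inputs lay above all NSi inputs for 7 members (20.2% of all genes tested did so) and below them for Abca1 (16.9%). The log2 change was above 0 for 26 of 29 genes (89.7%), against 56.3% of all genes tested, and its median was 0.62, against 0.05. Of the 29 members, 15 had an unadjusted p under 0.05, as had 2945 of the 15072 genes tested. A call, here and below, means an adjusted p under 0.05 by edgeR's quasi-likelihood test with Benjamini-Hochberg adjustment over all genes tested.

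**Figure D1:**
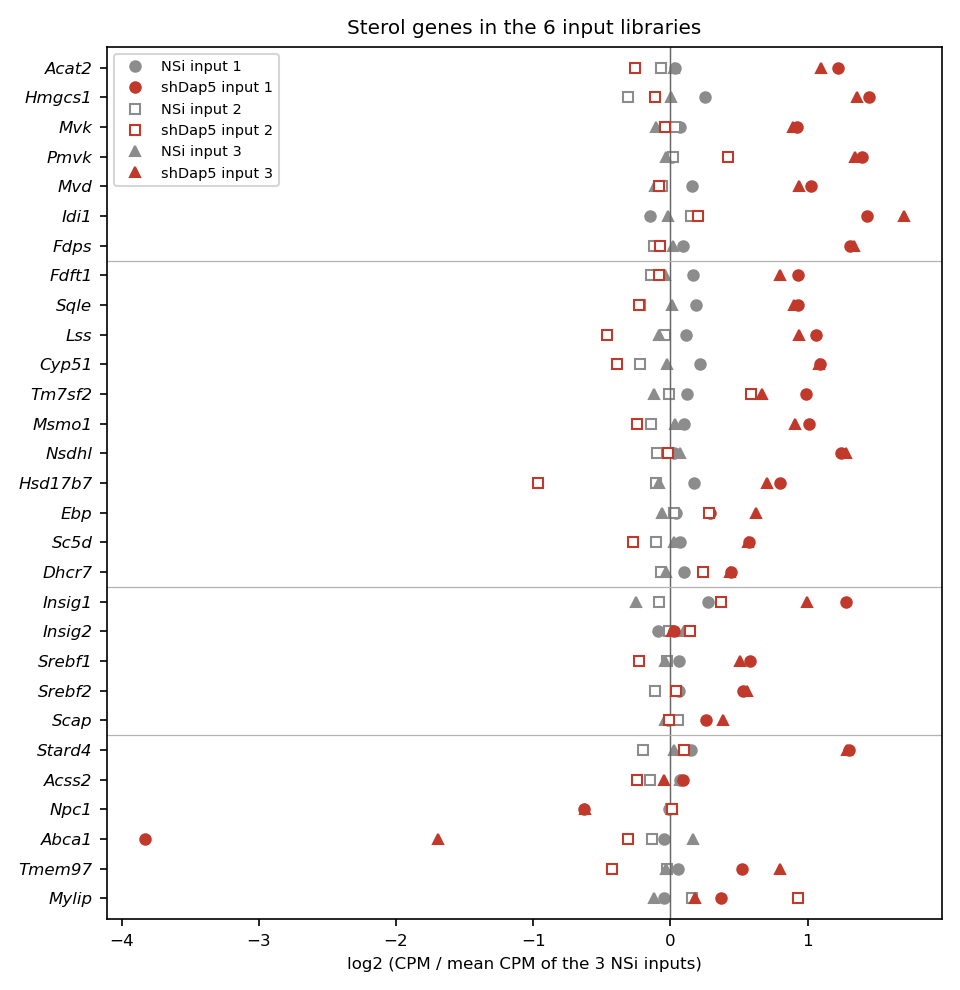
Level of each of the 29 genes in the 6 input libraries, as log2 of the CPM over the mean of the 3 NSi inputs; grey symbols are NSi and red symbols shDap5, filled for libraries 1 and 3 and open for library 2, and horizontal lines part the mevalonate pathway, sterol enzymes, regulators and transport genes. Circles and triangles in red lie right of all NSi inputs for 25 genes and left of them for Npc1 and Abca1, while open red squares lie near 0 for most genes.

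In the mevalonate pathway all 7 genes had a log2 change above 0, with a median of 0.99. Acat2, the cytosolic thiolase that joins acetyl-CoA units, stood at 36, 33.5 and 35.8 CPM in NSi inputs 1, 2 and 3 and at 81.7, 29.3 and 75.1 CPM in shDap5 inputs. Hmgcs1, the HMG-CoA synthase of the first committed steps, stood at 132, 89.7 and 112 CPM in NSi and 303, 103 and 285 CPM in shDap5 inputs. In both genes shDap5 inputs 1 and 3 were over 2-fold the NSi mean, and shDap5 input 2 was below it. Hmgcs1 had a log2 change of 1.05 (SE 0.40, adjusted p = 0.14), which did not pass the test.

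The kinases and the decarboxylase that turn mevalonate into isopentenyl diphosphate showed the same split. Mvk, mevalonate kinase, stood at 24.5, 23.9 and 21.7 CPM in NSi and 44.4, 22.8 and 43.3 CPM in shDap5 inputs. Pmvk, phosphomevalonate kinase, stood at 19.9, 20.1 and 19.4 CPM in NSi and 52.1, 26.5 and 50.4 CPM in shDap5 inputs. Mvd, the decarboxylase, stood at 25.7, 22.1 and 21.4 CPM in NSi and 47, 21.8 and 44.1 CPM in shDap5 inputs. In Pmvk alone of these 3 did all shDap5 inputs lie above all NSi inputs, and its log2 change of 1.12 (SE 0.38, adjusted p = 0.0896) did not pass the test.

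Idi1, the isomerase that makes dimethylallyl diphosphate, stood at 2.2, 2.7 and 2.42 CPM in NSi and 6.58, 2.8 and 7.94 CPM in shDap5 inputs. All 3 shDap5 inputs lay above the NSi inputs, library 2 by a small margin, and Idi1 rose by a log2 change of 1.24 (SE 0.32, adjusted p = 0.0229). Its counts in the NSi inputs were 141, 168 and 155. Fdps, farnesyl diphosphate synthase, stood at 55.2, 47.7 and 52.3 CPM in NSi and 128, 49 and 131 CPM in shDap5 inputs. There libraries 1 and 3 were near 2.5-fold the NSi mean and library 2 lay within the NSi range.

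Of the enzymes from squalene onward all 11 had a log2 change above 0, with a median of 0.62, and none passed the test. Fdft1, squalene synthase, stood at 61.6, 49.8 and 53.5 CPM in NSi and 105, 52 and 95.8 CPM in shDap5 inputs. Sqle, the squalene epoxidase that controls flux late in the pathway, stood at 154, 116 and 136 CPM in NSi and 257, 116 and 252 CPM in shDap5 inputs. Lss, lanosterol synthase, stood at 63.1, 56.8 and 55.2 CPM in NSi and 122, 42.3 and 112 CPM in shDap5 inputs. In all 3 genes libraries 1 and 3 of shDap5 lay above every NSi input. Library 2 lay below the NSi inputs for Lss, and for Sqle it was level with the lowest of them (115.5 against 115.8 CPM).

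Cyp51, which removes the 14-alpha methyl group of lanosterol, stood at 121, 89.6 and 102 CPM in NSi and 221, 79.6 and 221 CPM in shDap5 inputs. Msmo1, which oxidizes the C4 methyl groups, stood at 194, 165 and 186 CPM in NSi and 365, 154 and 341 CPM in shDap5 inputs. Nsdhl, the decarboxylating dehydrogenase of the same steps, stood at 31.1, 28.5 and 31.9 CPM in NSi and 72.3, 30.1 and 74.1 CPM in shDap5 inputs. Nsdhl had a log2 change of 0.95 (SE 0.35, adjusted p = 0.127), and only its library 2 lay within the NSi range. Hsd17b7, the ketosteroid reductase of C4 demethylation, stood at 34.6, 28.5 and 28.9 CPM in NSi and 53.3, 15.7 and 49.95 CPM in shDap5 inputs. It had the widest split of the synthesis enzymes, with library 2 at 0.512-fold the NSi mean and libraries 1 and 3 at 1.74-fold and 1.63-fold.

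Of the remaining enzymes, 3 were above NSi in every shDap5 input. Tm7sf2, a sterol C14 reductase, stood at 8.07, 7.35 and 6.81 CPM in NSi and 14.7, 11.1 and 11.8 CPM in shDap5 inputs. Ebp, the sterol isomerase, stood at 25.1, 24.8 and 23.4 CPM in NSi and 29.8, 29.6 and 37.7 CPM in shDap5 inputs. Dhcr7, the reductase of 7-dehydrocholesterol, stood at 65.3, 58 and 59.5 CPM in NSi and 82.6, 71.7 and 82.4 CPM in shDap5 inputs. Tm7sf2, Ebp and Dhcr7 thus differ from the other enzymes of this group in the place of library 2, and Tm7sf2 had a log2 change of 0.76 (SE 0.27, adjusted p = 0.102). Sc5d, the desaturase before Dhcr7, stood at 90.2, 79.8 and 87.6 CPM in NSi and 128, 71.2 and 127 CPM in shDap5 inputs, with library 2 below the NSi inputs.

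Among the regulators, Insig1 was the most different and Insig2 the least. Insig1, itself a target of SREBP, stood at 102, 79.4 and 70.7 CPM in NSi and 204, 109 and 168 CPM in shDap5 inputs, with no overlap (log2 0.93, SE 0.41, adjusted p = 0.215). Insig2, the paralog that is not induced by SREBP, stood at 71.9, 76.3 and 82.1 CPM in NSi and 78.3, 84.8 and 77.4 CPM in shDap5 inputs, with overlapping groups (log2 0.06, SE 0.16).
The transcription factor genes lay between them. Srebf1 stood at 109.9, 104 and 103 CPM in NSi and 157, 90.1 and 150 CPM in shDap5 inputs. Srebf2 stood at 220.4, 195 and 217 CPM in NSi and 304, 217 and 309.9 CPM in shDap5 inputs. Scap, the escort, stood at 95.9, 101 and 94.4 CPM in NSi and 116, 96.1 and 126 CPM in shDap5 inputs. In each of the 3, libraries 1 and 3 of shDap5 lay above the NSi inputs and library 2 did not.

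The transport and supply genes did not share 1 direction. Stard4, which carries sterol between membranes and is a target of SREBP2, stood at 61.4, 48 and 56.3 CPM in NSi and 136, 59.2 and 135 CPM in shDap5 inputs. Stard4 rose by a log2 change of 1.0 (SE 0.24, adjusted p = 0.0162), with library 2 inside the NSi range. Tmem97, a regulator of NPC1 known to be induced when sterol is low, stood at 20.3, 19.3 and 19.1 CPM in NSi and 28.1, 14.6 and 34 CPM in shDap5 inputs. Acss2, the acetyl-CoA synthetase, stood at 25.7, 22.2 and 25.8 CPM in NSi and 26.2, 20.7 and 23.8 CPM in shDap5 inputs, with overlapping groups.

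The genes of sterol exit lay on the other side. Npc1, which moves cholesterol out of lysosomes, stood at 34.5, 34.8 and 35 CPM in NSi and 22.4, 35 and 22.5 CPM in shDap5 inputs. Abca1, the exporter, stood at 0.905, 0.852 and 1.04 CPM in NSi and 0.0657, 0.752 and 0.288 CPM in shDap5 inputs, from 58, 53 and 67 counts against 5, 46 and 15. Both were lower than NSi in shDap5 inputs 1 and 3, and for Npc1 library 2 was at the NSi level. Neither passed the test (log2 -0.38, SE 0.29, adjusted p = 0.525 for Npc1; log2 -1.35, SE 0.64, adjusted p = 0.258 for Abca1). Mylip, the LXR target, stood at 7.48, 8.62 and 7.13 CPM in NSi and 9.97, 14.7 and 8.74 CPM in shDap5 inputs. All shDap5 inputs lay above NSi for Mylip, and here library 2 was the highest (log2 0.53, SE 0.25, adjusted p = 0.248).

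Counted per library, 26, 9 and 25 of the 29 genes lay above all 3 NSi inputs in shDap5 inputs 1, 2 and 3, against 45.5%, 36.6% and 46.8% of all genes tested. The median member stood at a log2 of 0.93, -0.07 and 0.81 to the NSi mean. In both libraries 1 and 3, 25 genes lay above all NSi inputs, 17 were at least 1.5-fold the NSi mean and 8 at least 2-fold: Acat2, Hmgcs1, Pmvk, Idi1, Fdps, Cyp51, Nsdhl and Stard4. Libraries 1 and 3 lay within 1.3-fold of each other for 28 genes, all but Abca1. These counts over both libraries were not made over all genes tested, so whether they are unusual cannot be said. Libraries 1 and 3 were also the closest shDap5 inputs over all genes with enough counts. Chi-square per degree of freedom was 11.9 between them, and 133 and 132 between each and library 2. In NSi inputs it was 9.57 between libraries 1 and 3, against 32.8 and 31.4. Between the lowest and highest shDap5 input the median member differed 2.01-fold, against 1.34-fold over all genes tested, and 25 of 29 were lowest in library 2, as were 48.9% of all genes. In NSi inputs the same spread was 1.16-fold for members and 1.15-fold for all genes.

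The summed level of the 29 genes was 1894, 1633 and 1747 CPM in NSi inputs and 3195, 1669 and 3097 CPM in shDap5 inputs. Library 2 was also the shDap5 input with the lowest Eif4g2, while epithelial markers were above the NSi range in all 3 shDap5 inputs. Its total of 50430005 counts lay between the 49130045 of library 3 and the 69233705 of library 1. The part of any of these in the split was not tested. Without shDap5 input 2, 13 members were called. Those that rose were Acat2, Cyp51, Fdps, Hmgcs1, Hsd17b7, Idi1, Msmo1, Nsdhl, Pmvk, Sc5d, Sqle and Stard4, Abca1 fell, and 11.2% of all genes were called in that fit. Without any other single input, 0 or 1 member was called (1 without NSi input 1). With the NSi and shDap5 inputs fitted alone, 4 members rose (Dhcr7, Insig1, Pmvk and Tm7sf2; 15.2% of all genes were called), and Stard4 (edgeR adjusted p = 0.0624) and Idi1 (adjusted p = 0.0597) lost their calls.

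Same-numbered libraries of the arms deviated together on light and on heavy polysomes. In input they did so weakly, with correlations of 0.152 to 0.365, against -0.332 to 0.183 between different numbers. Pairing is thus less certain in input. A fit with the number as a block within each fraction was also made. In it 19 of 29 genes were called in input (22.1% of all genes tested were called). The 17 that rose were Mvk, Pmvk, Mvd, Idi1, Fdps, Hmgcs1, Fdft1, Sqle, Tm7sf2, Msmo1, Nsdhl, Ebp, Dhcr7, Insig1, Srebf2, Stard4 and Mylip. Npc1 (log2 -0.42, adjusted p = 0.0453) and Abca1 (-1.66, adjusted p = 0.0439) fell with the block. Stard4 (log2 0.91, SE 0.15, edgeR adjusted p = 0.000538) and Insig1 (0.90, SE 0.14, adjusted p = 0.000373) had the smallest p-values there. With the number as 1 block across fractions 10 members were called, and 11.9% of all genes. That block gives each number the same effect in every fraction, though numbers were not taken to pair input with polysomes.

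On light polysomes, where mRNAs carry few ribosomes, the arms were close for most sterol genes. No member was called by edgeR (3.47% of all genes tested were called, 1.83% higher and 1.64% lower), and DESeq2 also called 0. By edgeR 3 of the 29 members had an unadjusted p under 0.05, as had 2428 of the 15072 genes tested. The median log2 change was 0.10, against -0.01 over all genes. Mylip stood at 8.04, 9 and 8.16 CPM in NSi and 11.5, 16.1 and 13.2 CPM in shDap5, with no overlap (log2 0.70, SE 0.25, adjusted p = 0.147). Tm7sf2 stood at 11.4, 9.78 and 18.6 CPM in NSi and 15.2, 19.3 and 25.1 CPM in shDap5, with each numbered shDap5 library above its NSi partner (log2 0.59, adjusted p = 0.279). Dhcr7 stood at 50.2, 38.4 and 58.6 CPM in NSi and 58.6, 52.5 and 84.4 CPM in shDap5, again higher within each number (log2 0.41, adjusted p = 0.28). These 3 rose in the fit with a block within each fraction, in which 16.1% of all genes were called (edgeR adjusted p = 0.00433 for Mylip, 0.00694 for Tm7sf2 and 0.0166 for Dhcr7).

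Nsdhl stood at 51.4, 29.4 and 44.5 CPM on NSi and 54.8, 39.1 and 86.9 CPM on shDap5 light polysomes (log2 0.53, adjusted p = 0.512). Hsd17b7 stood at 25.9, 18.3 and 20.6 CPM in NSi and 18.4, 10 and 18.8 CPM in shDap5, on the lower side (log2 -0.46, adjusted p = 0.546). Stard4, one of the pair called in input, stood at 47.3, 39.6 and 49 CPM in NSi and 50.3, 51.9 and 64.2 CPM in shDap5, with no overlap. Mylip and Stard4 were the 2 members whose shDap5 libraries all lay above NSi (10.2% of all genes tested did so), and no member lay wholly below (9.64%). Between the lowest and highest shDap5 light library the median member differed 1.8-fold, against 1.44-fold over all genes tested. Of the 29 genes, 21 were highest in shDap5 light 3, as were 35.3% of all genes.

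The rest of the pathway on light polysomes is given by role. Hmgcs1 stood at 63.7, 48.4 and 87.9 CPM in NSi and 74.7, 52.8 and 143 CPM in shDap5. Acat2 stood at 45.2, 26.3 and 51.6 CPM in NSi and 38.2, 26.6 and 67.1 CPM in shDap5. Pmvk stood at 45.3, 30.2 and 50.2 CPM in NSi and 41.5, 45.9 and 76.2 CPM in shDap5. The groups overlapped in each, and library 3 of shDap5, the highest of its group, set the upper end. Mvd stood at 47.4, 36 and 91 CPM in NSi and 46.6, 48.5 and 138 CPM in shDap5. Fdps stood at 106, 61.8 and 131 CPM in NSi and 87.9, 85.5 and 185 CPM in shDap5. Idi1 stood at 0.989, 0.9 and 0.778 CPM in NSi and 1.28, 0.868 and 1.06 CPM in shDap5. Mvd and Fdps were again highest in library 3 of both arms, while Idi1 stayed near 1 CPM in every library.

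The sterol enzymes on light polysomes were as close. Fdft1 stood at 83.6, 61.9 and 93.6 CPM in NSi and 76.3, 67.3 and 121 CPM in shDap5. Sqle stood at 124, 69.7 and 118 CPM in NSi and 98.1, 90.2 and 127 CPM in shDap5. Cyp51 stood at 133, 68 and 112 CPM in NSi and 106, 68 and 134 CPM in shDap5. For these 3 genes libraries 1 of shDap5 lay below libraries 1 of NSi, and libraries 3 above. Msmo1 stood at 184, 113 and 176 CPM in NSi and 154, 104 and 218 CPM in shDap5. Ebp stood at 56.9, 47.4 and 46.4 CPM in NSi and 55.7, 67.3 and 50.6 CPM in shDap5. Sc5d stood at 52.2, 39.5 and 46 CPM in NSi and 46.1, 35.4 and 45.7 CPM in shDap5. Of these 3, Ebp alone was highest in shDap5 library 2.

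Among the regulators and transport genes that follow, the arms also overlapped on light polysomes. Srebf2 stood at 196, 204 and 272 CPM in NSi and 218, 264 and 265 CPM in shDap5. Scap stood at 157, 186 and 152 CPM in NSi and 177, 209.7 and 122 CPM in shDap5. Scap, unlike the synthesis genes, was lowest in library 3 and highest in library 2 of both arms. Tmem97 stood at 54, 41.4 and 31.3 CPM in NSi and 41.6, 33.4 and 21.8 CPM in shDap5. Acss2 stood at 21.9, 18.4 and 28.1 CPM in NSi and 18.6, 15.9 and 28.5 CPM in shDap5. Npc1 stood at 13.3, 17.4 and 11.3 CPM in NSi and 11.9, 18.3 and 10.04 CPM in shDap5. Npc1 had the order of Scap in both arms, with library 2 highest and library 3 lowest.

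On heavy polysomes, which carry the mRNAs with many ribosomes, no member was called either (3.95% of all genes tested were called, 2.03% higher and 1.92% lower). By edgeR 3 of the 29 members had an unadjusted p under 0.05, as had 2585 of the 15072 genes tested, and DESeq2 called 0 members. The median log2 change was -0.01, against 0.01 over all genes. Mylip stood at 5.11, 6.7 and 8.83 CPM in NSi and 7.79, 12.3 and 13.9 CPM in shDap5, higher within each number (log2 0.72, SE 0.25, adjusted p = 0.128). Tm7sf2 stood at 10.9, 11.7 and 19 CPM in NSi and 17, 19.6 and 26.3 CPM in shDap5, also higher within each number (log2 0.60, adjusted p = 0.252). Insig1 stood at 52.9, 45.9 and 129 CPM in NSi and 70.4, 75.1 and 170.5 CPM in shDap5, with library 3 far above the others in both arms (log2 0.47, adjusted p = 0.616). These 3 genes rose with the block within each fraction, in which 18.3% of all genes were called (edgeR adjusted p = 0.00322 for Mylip, 0.00563 for Tm7sf2 and 0.0212 for Insig1).

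Lower on heavy polysomes were Hsd17b7 and Srebf1, the 2 members whose shDap5 libraries all lay below NSi (8.11% of all genes tested did so); no member lay wholly above (7.6%). Hsd17b7 stood at 35.4, 29.97 and 35.3 CPM in NSi and 22, 16.5 and 19.5 CPM in shDap5 (log2 -0.80, SE 0.32, adjusted p = 0.206). With the number as 1 block across fractions Hsd17b7 fell and Mylip rose, and these were the 2 calls among members in that fit (7.44% of all genes were called). Srebf1 stood at 159, 149.5 and 187 CPM in NSi and 111, 125 and 144 CPM in shDap5 (log2 -0.38, adjusted p = 0.429). Stard4 stood at 46.7, 38 and 52.2 CPM in NSi and 60.4, 51.7 and 69.3 CPM in shDap5, higher within each number (log2 0.41, adjusted p = 0.418).

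**Figure D2:**
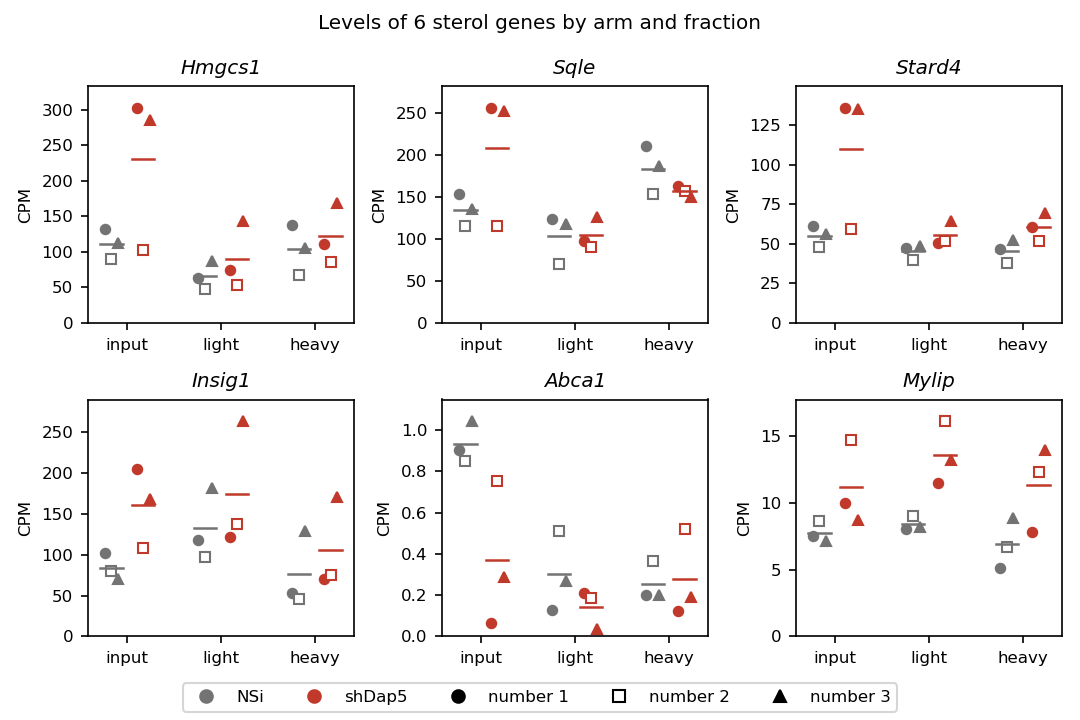
CPM of Hmgcs1, Sqle, Stard4, Insig1, Abca1 and Mylip in the 18 libraries, by fraction, with NSi in grey and shDap5 in red; symbols give the library number and short lines the mean of 3 libraries, and each axis starts at 0. In Hmgcs1, Sqle and Stard4, inputs 1 and 3 of shDap5 stand above all other inputs. On polysomes the arms overlap in Hmgcs1 and Sqle, and Stard4 is higher in shDap5 within each number.

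Across light and heavy polysomes the summed level of the 29 genes differed more between numbers than between arms. On heavy polysomes it was 3110.5, 2364.5 and 3301 CPM in NSi libraries 1, 2 and 3 and 2734.5, 2424 and 3373 CPM in shDap5. On light polysomes it was 1987, 1563 and 2254 CPM in NSi and 1886, 1809 and 2662 CPM in shDap5. Library 2 was lowest and library 3 highest in every one of these 4 groups, and in NSi heavy 21 of 29 genes were lowest in library 2 (38.1% of all genes were). The order of the input libraries was another one: library 1 was the highest input in both arms.

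The mevalonate genes on heavy polysomes can be set beside their input pattern. On heavy polysomes Hmgcs1 stood at 138, 68.2 and 105 CPM in NSi and 111, 85.4 and 169 CPM in shDap5. Acat2 stood at 134, 73.7 and 116 CPM in NSi and 120.1, 66.3 and 139.9 CPM in shDap5. Library 1 of shDap5 was over 2-fold the NSi mean in input for both genes. On heavy polysomes library 1 was at 1.07-fold and 1.12-fold the NSi mean there, and library 3 at 1.63-fold and 1.3-fold. Numbers were not taken to pair input with heavy polysomes. Idi1 stood at 1.46, 0.878 and 1.39 CPM in NSi and 1.14, 0.988 and 1.46 CPM in shDap5, and Pmvk at 68.1, 37.5 and 91.4 and 70.6, 41.9 and 132 CPM. The groups overlapped for all 4 genes.

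The sterol enzymes and exporters followed. Sqle stood at 211, 153 and 188 CPM on NSi and 163, 157 and 151 CPM on shDap5 heavy polysomes. Cyp51 stood at 238, 117 and 145 CPM in NSi and 161, 111 and 143 CPM in shDap5. Both had log2 changes under 0 there (-0.23 and -0.27, adjusted p = 0.713 and 0.757 by edgeR), with overlapping groups. Npc1 stood at 35.4, 39.3 and 21.1 CPM in NSi and 23.7, 39.6 and 19 CPM in shDap5, with library 2 the highest in both arms. Abca1 had 1 to 20 counts in any polysome library, at most 0.520 CPM, too few to compare its level between the arms there.

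The remaining members on heavy polysomes had overlapping groups. Fdps stood at 189.8, 114 and 222 CPM in NSi and 180, 119.7 and 287 CPM in shDap5. Mvd stood at 101, 60.1 and 129.8 CPM in NSi and 82.5, 56.1 and 153 CPM in shDap5. Fdft1 stood at 160, 101 and 189 CPM in NSi and 124, 104 and 186 CPM in shDap5. In these 3 genes library 3 was the highest of each arm, as in the summed level. Lss stood at 138, 73.6 and 109.6 CPM in NSi and 94.5, 58 and 119.7 CPM in shDap5. Msmo1 stood at 347, 237 and 353 CPM in NSi and 282, 231 and 318 CPM in shDap5. Nsdhl stood at 80.6, 48.7 and 94.5 CPM in NSi and 89.7, 61.9 and 128 CPM in shDap5. Nsdhl was higher in shDap5 within each number, while Msmo1 was lower within each number. Sc5d stood at 73.2, 53.4 and 54.4 CPM in NSi and 57.9, 45 and 47.8 CPM in shDap5. Ebp stood at 73.2, 81 and 97.8 CPM in NSi and 76.6, 88.2 and 86.8 CPM in shDap5. Dhcr7 stood at 118, 87.4 and 114 CPM in NSi and 111, 109 and 124 CPM in shDap5. Sc5d, like Msmo1, was lower in shDap5 within each number. Srebf2 stood at 297, 314 and 375 CPM in NSi and 284, 362 and 329 CPM in shDap5. Scap stood at 159.8, 215 and 181 CPM in NSi and 187, 200.2 and 138 CPM in shDap5. Tmem97 stood at 75.9, 61.2 and 62.1 CPM in NSi and 69, 41.6 and 34.6 CPM in shDap5. Tmem97 was lower in shDap5 within each number, with overlapping groups. Acss2 stood at 52.8, 45 and 59.97 CPM in NSi and 40.2, 39.9 and 56.7 CPM in shDap5, likewise lower within each number. Mvk stood at 65.2, 50.2 and 98.1 CPM in NSi and 66.3, 47.1 and 97.9 CPM in shDap5, nearly alike in the arms at each number.

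Whether the arm difference on polysomes departed from that in input was tested as an interaction. On heavy polysomes relative to input, 25 of 29 genes had a lower log2 change than in input, with a median of -0.67, against -0.02 over all genes tested. No member was called by edgeR or DESeq2 and no gene of the 15072 was (0% called). By edgeR 4 members had an unadjusted p under 0.05, as had 295 of all genes tested. Idi1 (-1.30, SE 0.47), Hsd17b7 (-1.17, SE 0.46), Sqle (-0.85, SE 0.37), Srebf1 (-0.71, SE 0.32) and Sc5d (-0.60, SE 0.29) had the smallest p-values, each with an edgeR adjusted p = 1. By role the median was -0.81 for the mevalonate pathway, -0.74 for the sterol enzymes, -0.41 for the regulators and 0.01 for transport and supply.

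On light polysomes relative to input the median was -0.47, against -0.04 over all genes, and 25 of 29 genes again had a lower change than in input. No gene was called by edgeR or DESeq2 (0%), and 0 members had an unadjusted p under 0.05, against 320 of the 15072 genes tested. Both relative comparisons use the same inputs, in which 1 shDap5 library stood apart. Without shDap5 input 2 the medians were -0.92 on heavy and -0.73 on light polysomes, and without shDap5 input 1 they were -0.51 and -0.32. With any 1 library left out they ran from -0.92 to -0.48 on heavy and from -0.77 to -0.32 on light polysomes, with 0 members called. On heavy relative to light polysomes, which leaves the inputs out, the median was -0.16 with 0 members and 0% of all genes called by edgeR or DESeq2. There 0 members had an unadjusted p under 0.05, against 181 of the 15072 genes tested. Without shDap5 light 3 that median was 0.11, on the other side of 0. A missed threshold does not show that the differences were alike in the fractions.

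**Figure D3:**
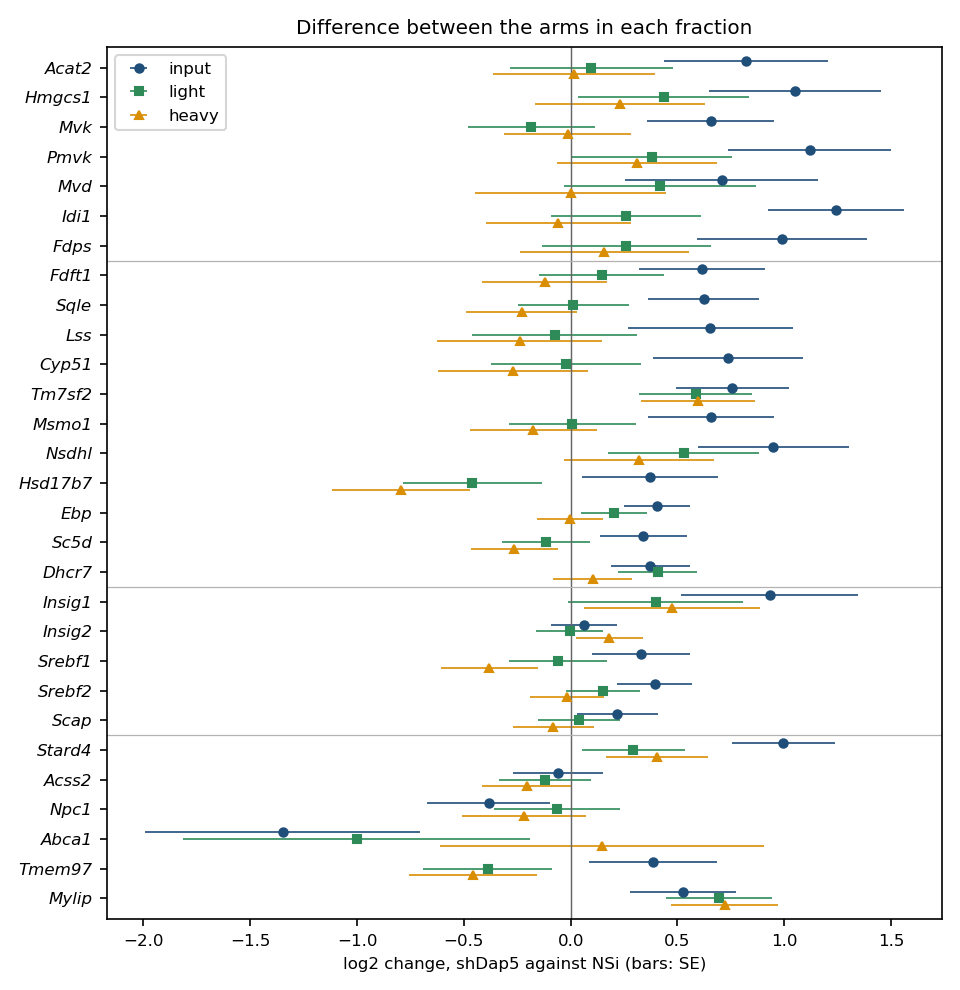
Log2 change of shDap5 against NSi for each gene in input (blue circles), light (green squares) and heavy polysomes (orange triangles), from edgeR, with bars of 1 SE; lines part the 4 roles. For 25 genes the blue circle lies right of the orange triangle, and the called changes in this plot are Stard4 and Idi1 in input.

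In control cells the sterol mRNAs were placed mostly toward heavy polysomes. Between heavy polysomes and input of NSi, 16 members were higher and 4 lower (20 of 29 called, against 46.6% of all genes tested, 26.4% higher and 20.2% lower), with a median of 0.78, against 0.03. Mvd stood at 25.7, 22.1 and 21.4 CPM in input and 101, 60.1 and 129.8 CPM on heavy polysomes (log2 2.07, SE 0.47, adjusted p = 0.00147). Ebp stood at 25.1, 24.8 and 23.4 CPM in input and 73.2, 81 and 97.8 CPM on heavy polysomes (1.78, SE 0.16, adjusted p = 2.04e-07). Tmem97, Fdps and Pmvk rose by 1.76, 1.76 and 1.73, and Acat2 and Mvk by 1.62 and 1.61. The remaining 9 that rose were Fdft1, Nsdhl, Tm7sf2, Dhcr7, Msmo1, Acss2, Scap, Srebf1 and Srebf2, by 0.64 to 1.45.

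The 4 that fell on heavy polysomes were Abca1, Idi1, Insig2 and Sc5d, of which Insig2 alone kept its call with any 1 of these libraries left out. Without NSi input 2 or NSi input 3 it was the only member that fell. Msmo1, Srebf1 and Tm7sf2, among those that rose, also lost their calls in 1 or more of these fits. Idi1 fell by 0.96 on the log2 scale (SE 0.33, adjusted p = 0.0239), from 2.2, 2.7 and 2.42 CPM to 1.46, 0.878 and 1.39 CPM. Sc5d fell by 0.51 (SE 0.20, adjusted p = 0.0493), from 90.2, 79.8 and 87.6 CPM to 73.2, 53.4 and 54.4 CPM. Idi1, low per kilobase in input, was thus the one mevalonate enzyme that fell on heavy polysomes. Abca1 fell by 1.89 (SE 0.70, adjusted p = 0.0346), on few counts. A CPM value is relative to the other mRNAs of its fraction, so these changes give placement relative to other genes and not the number of ribosomes.

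Along the gradient itself, from light to heavy polysomes of NSi, 11 members rose and Insig2 fell (12 of 29 called, against 52.6% of all genes tested, 27% higher and 25.6% lower). The median was 0.65, against -0.03 over all genes. Srebf1 stood at 37.5, 45.5 and 73 CPM on light and 159, 149.5 and 187 CPM on heavy polysomes (log2 1.67, SE 0.235, adjusted p = 1.85e-05). Lss stood at 42.7, 27.6 and 50.3 CPM on light and 138, 73.6 and 109.6 CPM on heavy polysomes (1.41, SE 0.39, adjusted p = 0.00596). Acat2, Acss2, Npc1 and Dhcr7 rose by 1.39, 1.21, 1.19 and 1.12. The other 5 were Msmo1, Fdft1, Sqle, Ebp and Srebf2, by 0.55 to 0.98. Msmo1, Sqle and Fdft1 lost their calls without NSi light 2, Sqle also without NSi heavy 1, Fdft1 without NSi heavy 3 and Srebf2 without NSi light 1.

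The INSIG genes lay on the light side. Insig2 stood at 109, 97.8 and 116 CPM on light and 43, 51.3 and 61.6 CPM on heavy polysomes of NSi (log2 -1.05, SE 0.16, adjusted p = 3.71e-05). Insig1 stood at 118, 96.6 and 181 CPM on light and 52.9, 45.9 and 129 CPM on heavy polysomes (-0.80, SE 0.41, adjusted p = 0.112), lower within each number. Mvk, alone of the mevalonate enzymes, was also lower on heavy within each number, at 101, 79.7 and 134 CPM on light and 65.2, 50.2 and 98.1 CPM on heavy polysomes (-0.56, SE 0.30, adjusted p = 0.119). Mvk nevertheless stood over 2-fold its input level on heavy polysomes. Light and heavy libraries of the same number deviate together. With the number as 1 block across fractions 23 members were called, 20 higher and 3 lower, and 59% of all genes. The 3 were Insig2, Insig1 (edgeR adjusted p = 0.0137) and Mvk (adjusted p = 0.0136). That block also holds the inputs, whose numbers were not taken to pair with polysomes.

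The shDap5 arm showed a like placement. There 8 members rose from light to heavy polysomes and Insig2 fell (9 of 29 called, against 44.5% of all genes tested, 24.3% higher and 20.2% lower), with a median of 0.54, against 0.01. The 8 were Srebf1, Acat2, Lss, Acss2, Npc1, Dhcr7, Msmo1 and Ebp. Without shDap5 light 2, 5 members rose, and Acat2, Lss and Msmo1 lost their calls. Lss and Msmo1 lost theirs without other single libraries too, and Npc1 without shDap5 heavy 2. Srebf1 stood at 46.9, 43.8 and 59.2 CPM on light and 111, 125 and 144 CPM on heavy polysomes (log2 1.34, SE 0.23, adjusted p = 0.000216). Insig2 stood at 92, 108 and 121 CPM on light and 50.5, 57.6 and 68.7 CPM on heavy polysomes (-0.86, SE 0.16, adjusted p = 0.000344). Insig1 and Mvk were again lower on heavy within each number. Insig1 stood at 121, 138 and 263 CPM on light and 70.4, 75.1 and 170.5 CPM on heavy polysomes, and Mvk at 87.8, 75.9 and 114 and 66.3, 47.1 and 97.9 CPM. Lss, on the heavy side, stood at 35.6, 20.6 and 58.5 CPM on light and 94.5, 58 and 119.7 CPM on heavy polysomes. With the number as 1 block across fractions 15 members were called, 13 higher, and Insig1 (edgeR adjusted p = 0.0337) and Insig2 lower, and 51.4% of all genes.

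Counted over all 6 same-numbered pairs of the 2 arms, 19 of the 29 genes were higher on heavy than on light polysomes in every pair. Lower in every pair were 3 (Mvk, Insig1 and Insig2). The same was not counted over all genes tested, so whether these counts are unusual cannot be said. Longer coding regions hold more ribosomes, and across all 12585 tested genes with a coding length the change from light to heavy rose with that length (Spearman rho 0.387 in NSi and 0.362 in shDap5). Over the 29 members rho was 0.282 and 0.358, given as a description, since genes share libraries and are not replicates. Insig1 and Insig2 have short coding regions of 777 and 675 bases, and Srebf1 and Npc1 long ones of 3402 and 3831 bases. Length does not order all members, since Scap at 3828 bases had a change of 0.17 in NSi and Ebp at 690 bases one of 0.74.

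**Figure D4:**
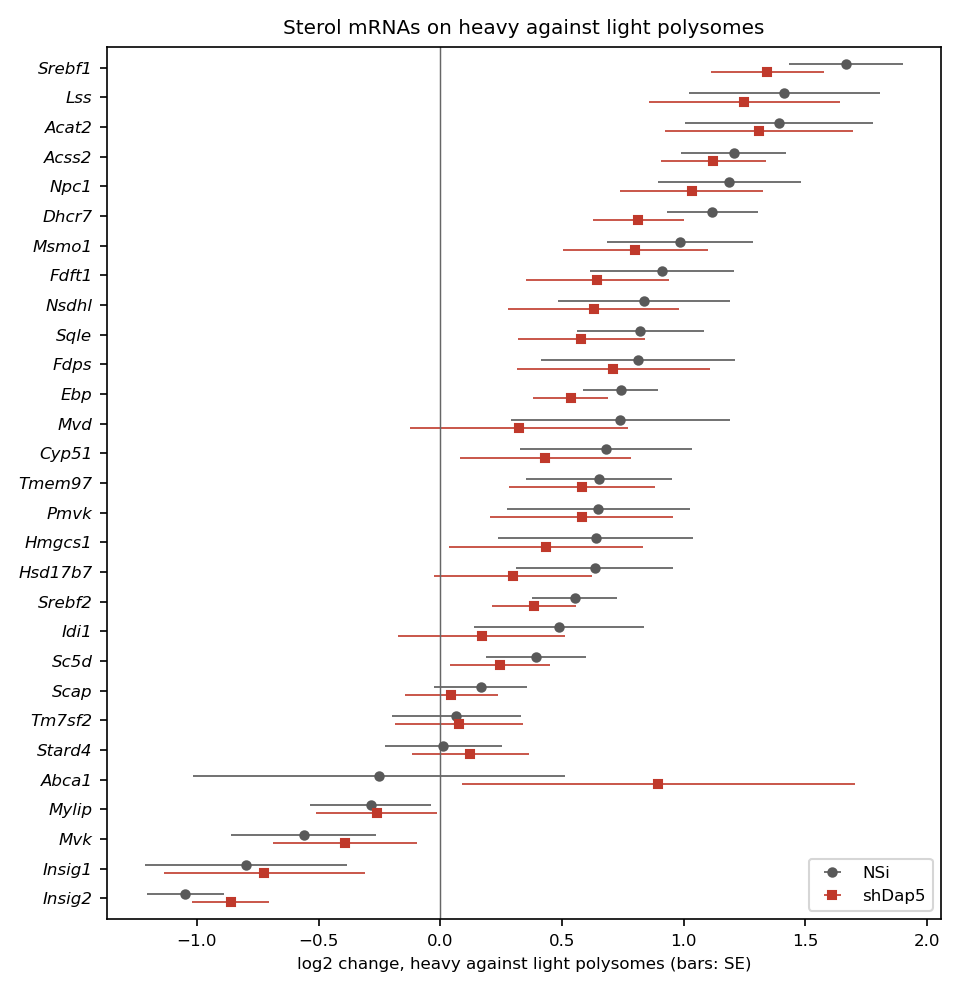
Log2 change from light to heavy polysomes for each gene in NSi (grey circles) and shDap5 (red squares), from edgeR, with bars of 1 SE, ordered by the NSi value. Srebf1 is at the top (1.67 and 1.34) and Insig2 at the bottom (-1.05 and -0.86), and the arms lie side by side for most genes.

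Other genes of sterol and isoprenoid metabolism, a list of 33 with 31 tested, did not share the input pattern. None was called in input by edgeR, DESeq2 called 2, and their median log2 change was 0.06. By edgeR 6 of the 31 had an unadjusted p under 0.05, as had 2945 of the 15072 genes tested. With the block within each fraction 8 of the 31 were called, 5 of them higher, in a fit that called 22.1% of all genes. In shDap5 inputs 1 and 3, 16 and 16 of the 31 lay above all NSi inputs, against 45.5% and 46.8% of all genes. On heavy polysomes Cyp7b1, an oxysterol hydroxylase, fell by 1.86 on the log2 scale (SE 0.50, edgeR adjusted p = 0.0461), from 1.68, 0.695 and 1.04 CPM to 0.307, 0.182 and 0.432 CPM. It was the 1 gene of that list that edgeR called between the arms without a block. Its counts were low, since 3 counts equal 0.0785, 0.0679 and 0.0421 CPM in these shDap5 libraries before TMM scaling.

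Of 11 fatty acid genes that SREBP also drives, 10, 2 and 9 lay above all NSi inputs in shDap5 inputs 1, 2 and 3 (45.5%, 36.6% and 46.8% of all genes). All 11 were tested and 2 rose in input, with a median of 0.55 for the list, and with the block within each fraction 7 were called, 6 of them higher (22.1% of all genes were called). Scd2, a stearoyl-CoA desaturase, stood at 847, 726 and 771 CPM in NSi and 2141, 862 and 2144 CPM in shDap5 inputs (log2 1.14, SE 0.32, edgeR adjusted p = 0.0405). Fads2, a desaturase of polyunsaturated fatty acids, stood at 65.2, 63.9 and 65.4 CPM in NSi and 157, 62.9 and 165 CPM in shDap5 inputs (0.99, SE 0.24, adjusted p = 0.0153). In both, libraries 1 and 3 of shDap5 were over 2-fold the NSi inputs and library 2 was close to them, and on heavy polysomes the groups overlapped. Pnpla3, a lipid droplet lipase, fell on light polysomes (log2 -1.85, SE 0.50, edgeR adjusted p = 0.0469), from 0.583, 0.39 and 0.349 CPM to 0.213, 0.0526 and 0.102 CPM. In these shDap5 libraries 3 counts equal 0.0912, 0.0813 and 0.097 CPM before TMM scaling. The fall thus rests on very few counts and is limited by depth.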

How the data were processed

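For each of the 18 libraries the authors deposited raw counts listed by gene symbol and not normalized. The submitters' processing notes name Bowtie and the build mm9. How reads were assigned to genes (program, annotation, strand, shared reads) is not given in the sources used here. The libraries were polyA-selected, per the labels' protocols.

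The main test was edgeR's quasi-likelihood F test (edgeR 4.0.16, R 4.3.3) with TMM scaling and a robust fit, after filterByExpr at 10 counts (total 15). All 18 libraries entered 1 fit with a mean per group (12 residual degrees of freedom; biological coefficient of variation 0.227). P-values were adjusted by Benjamini-Hochberg over the 15072 genes tested within each of 9 comparisons. The SE of a log2 change was taken as its size over the square root of F. The fit was tested on simulated data. Replicates of every group differed beyond sampling noise (lowest chi-square per degree of freedom 9.57).

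Whether library numbers pair libraries was checked from the correlation of deviations from group means over genes of at least 10 CPM. Same-numbered libraries of the arms correlated at 0.152 to 0.365 (input), 0.567 to 0.807 (light) and 0.517 to 0.829 (heavy), and light with heavy at 0.496 to 0.765 within an arm. Libraries of the arms with different numbers correlated at most at 0.183 (input), -0.179 (light) and 0.0175 (heavy). Between same-numbered input and heavy polysomes the range was -0.326 to 0.105 in NSi and -0.262 to 0.43 in shDap5. The numbers were therefore taken to pair libraries within a fraction and between light and heavy. The basis was weakest in input, where the ranges of same and different numbers overlapped.

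Full statistics are given for called members and, where fewer than 5 were called, for the 5 smallest p-values; of other lists called genes are named, at most 4 per list. A few others were chosen after their values were seen. The members and lists were chosen with earlier results of these data known. Alternatives were DESeq2 1.42.0, its scaling (RLE) in edgeR, no filter, both blocks, the compared groups alone and each library left out. Promoters came from the RefSeq table (GRCm38.p6) and transcripts from GENCODE M21. Gene coordinates on mm9 are not used here.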

Additional observations from a re-analysis of the deposited data

How the results depend on the processing

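No change of a called member, or of the 5 with the smallest p-values where fewer were called, changed sign under the alternatives that were run: DESeq2, RLE scaling, no filter on low counts, only the groups compared, both replicate blocks and each library left out. Uncalled changes near 0 did: Acss2 in input went from -0.06 to 0.03 without shDap5 input 2, Acat2 on heavy from 0.02 to -0.02 and Msmo1 on light polysomes from 0.01 to -0.01 with the replicate block. In input, 2 members were called, against 10 with the replicate block, 19 with the replicate block within fraction and 4 with only the groups compared, where 15.2% of all genes were called and neither Stard4 nor Idi1 was. Leaving out 1 input library at a time gave 0 to 13 calls, the 13 without shDap5 input 2. On light polysomes the replicate block within fraction gave 3 calls in place of 0. On heavy polysomes the replicate block gave 2 calls and the block within fraction 3, in place of 0. For NSi heavy against light the 2 blocked fits gave 23 and 22 calls in place of 12, and for shDap5 they gave 15 and 18 in place of 9. Over all genes the block within fraction called 67% and 61%, so 18 of 29 lay at the share of all genes. The tests of heavy or light polysomes relative to input called 0 members in every alternative run. Without shDap5 input 2 they called 9 (0.0587%) and 8 (0.0521%) of all genes tested. The median change of the members went from 0.10 to -0.14 on light polysomes without shDap5 light 3, and from -0.01 to -0.21 on heavy polysomes without shDap5 heavy 3, and on heavy relative to light polysomes from -0.16 to 0.11 without shDap5 light 3. Stard4 lost its call without NSi input 2 or 3 or shDap5 input 1 or 3 (edgeR adjusted p = 0.0605 to 0.106), and Idi1 without any input other than shDap5 input 2 (adjusted p = 0.0665 to 0.161). Why these values moved was not tested beyond the smaller number of libraries. Abca1, at 1 to 67 counts per library, is limited by depth.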
